A study of Mus musculus with 2 samples.

Results

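The barcodes described here were picked by measured counts as migratory dendritic cells carrying Ccr7, the receptor for the lymph node chemokines Ccl19 and Ccl21. That name does not hold equally for every member, as the values below show. A barcode, standing for a droplet taken to hold 1 cell, was kept when it had 200 or more detected genes and at most 20% of its UMIs (unique molecular identifiers, each counting an RNA molecule) from mitochondrial genes. A kept barcode was a member when it had at least 1 Ccr7 UMI and at least 2 UMIs of Fscn1 plus Ccl22, and none of Cd3e, Cd3d or Cd79a, which encode parts of the T cell and B cell receptor complexes. The rule found 87 members among 12252 kept barcodes, 45 of 5833 in the thonzonium bromide library and 42 of 6419 in the control library.

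The libraries were made by droplet 3′ RNA sequencing from CD45-sorted cells of subcutaneous tumours grown from MFC, a mouse forestomach carcinoma line, in wild-type BALB/c mice. There was 1 library per group. The thonzonium bromide group received 50 mg/kg of this cationic surfactant every other day from day 6, and tumours were collected on day 10. The control group received PBS on the label that assigns the groups, although its protocol text is the same as that of the treated sample. How many mice entered a library was not stated. The values therefore describe these 2 libraries, with no replicate check and no test. All intervals are 95% and cover counting error only, because cells are not replicates.

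Dendritic cells take up antigen in tissue and, once matured, switch on Ccr7, reshape their actin skeleton, raise costimulatory and inhibitory ligands and travel by lymph to the draining node, where they meet naive T cells. Maturation also brings the chemokines Ccl22 and Ccl17, which attract T cells bearing Ccr4, and lowers new synthesis of MHC class II, whose protein is by then stable at the surface. In tumours, cells of this kind carry both T cell-stimulating and T cell-restraining molecules, and they can derive from type 1 or type 2 conventional dendritic cells.

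A pair of control members stood apart. They held 92181 and 134363 UMIs, 48.8% of all UMIs of control members, whereas the other 40 control members had a median of 4367 UMIs (836 to 20827) and the 45 thonzonium bromide members a median of 9854 (1068 to 20556). The 2 had 2 and 1 Ccr7 UMIs, 13 and 30 Fscn1 UMIs, and no UMI of Ccl22, Il4i1, H2-Aa or H2-Eb1. Together they had 5487 CPM (the gene's UMIs scaled to a library total of 1000000) of Spp1, 525 CPM of Rhox5, 817 CPM of Cald1 and 481 CPM of Col3a1, against 50.6, 0, 4.21 and 0 CPM in the other control members, and only 17.7 CPM of Ptprc, the gene of CD45, against 590 CPM. Their counts go against a dendritic label, so control levels are given for the other 40 control members and also for all 42. The summed totals were 462907 UMIs in thonzonium bromide members, 237265 in the 40 control members and 463809 in all 42. The libraries shared 14 barcodes, none of them a member.

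Some defining markers of other cell types were absent from members and others were present. Xcr1 (type 1 dendritic), Cd209a (type 2 dendritic), Ms4a1 (B cells) and Ccr9 and Klk1 (plasmacytoid dendritic cells) were at 0 in members of both libraries. The 13 type 1 dendritic markers summed to 2497 CPM in thonzonium bromide members (0 to 6849 CPM per member) and 2546 CPM in the 40 control members (239 to 5981), against 5900 and 6834 CPM in type 1 barcodes. Of the 13, only 8 and 6 were detected in members, with Xcr1, Snx22, Itgae and Gcsam at 0 in both. The 14 type 2 markers summed to 2448 CPM (0 to 18374) and 1033 CPM (0 to 4554), against 5472 and 5100 CPM in type 2 barcodes. C1qa, a complement gene of macrophages, was at 2.16 CPM in thonzonium bromide members and 4.21 CPM in the 40 control members, against 2311 and 2753 CPM in macrophage barcodes. The 17 macrophage and monocyte markers summed to 1050 CPM in thonzonium bromide members (0 to 8326 CPM per member) and 1922 CPM in the 40 control members (0 to 10789), with Trem2 at 0 in both. T cell markers summed to 127 and 291 CPM over 16 genes, with ranges of 0 to 936 and 0 to 2813 CPM per member and with Cd5, Cd4, Bcl11b and Lef1 at 0 in both. The 10 NK cell markers summed to 110 CPM in thonzonium bromide members (0 to 728) and 1488 CPM in the 40 control members (0 to 14617). The 10 plasmacytoid markers summed to 799 CPM in thonzonium bromide members (0 to 3616) and 1260 CPM in the 40 control members (0 to 4848). A UMI of them was found in 42 and 31 members, and they summed to 12292 and 14131 CPM in plasmacytoid barcodes. The 8 B cell markers summed to 34.6 CPM (0 to 663) and 80.1 CPM (0 to 620), against 6798 and 6667 CPM in B barcodes. The 5 erythroid markers summed to 104 CPM (0 to 936) and 889 CPM (0 to 25267). The part of these genes in the results below was not tested.

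Members made up 0.771% of kept barcodes in the thonzonium bromide library (exact Clopper-Pearson interval 0.563 to 1.03) and 0.654% in the control library (0.472 to 0.883), a ratio of 1.18 (0.757 to 1.84). Without the 2 deep barcodes the control share was 0.623% and the ratio 1.24. Among conventional dendritic barcodes, members were 31.9% of 141 in the thonzonium bromide library (24.3 to 40.3) and 36.2% of 116 in the control library (27.5 to 45.6), a ratio of 0.881 (0.566 to 1.38). No difference in abundance was detectable at this depth on either denominator. Kept barcodes differed in depth, with a median of 7259 UMIs in the thonzonium bromide library and 4300 in the control. With every barcode first thinned to 2000 UMIs, the rule found 31 of 5171 thonzonium bromide barcodes (0.599%) and 26 of 4411 control barcodes (0.589%).

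Just inside the rule, with exactly 2 UMIs of Fscn1 plus Ccl22, were 4 thonzonium bromide and 6 control members, of which 1 and 6 had a UMI of Cacnb3. Just outside, with Ccr7 and exactly 1 such UMI, were 4 and 8 barcodes, of which 3 and 2 had Cacnb3. A further 19 and 56 barcodes met the Fscn1 and Ccl22 threshold without a Ccr7 UMI. Barcodes that met both thresholds but carried Cd3e or Cd3d numbered 14 and 8, and those with Cd79a and no Cd3 numbered 1 and 5.

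The other 4 genes fixed as markers of this cell type were far higher in members than in other classes. Cacnb3, a calcium channel subunit, was at 564 CPM in thonzonium bromide members and 708 CPM in the 40 control members, against 0 to 10.2 CPM in every other class compared, which were type 1 and type 2 dendritic, macrophage, plasmacytoid dendritic, T and B barcodes of both libraries. Il12b, the p40 subunit shared by interleukin-12 and interleukin-23, was at 968 and 733 CPM in members and at 0 to 1.18 CPM elsewhere. Socs2, a suppressor of cytokine signalling, was at 795 and 738 CPM in members and reached 28.1 and 36.9 CPM in T barcodes, the highest of the other classes. Il4i1, an amino acid oxidase that restrains T cells, was at 864 and 662 CPM in members and reached 85.4 and 36.0 CPM in plasmacytoid barcodes.

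The genes of the rule itself, given as description, were as concentrated. Ccr7 was at 2316 CPM in thonzonium bromide members and 1880 CPM in the 40 control members, and the next highest class was B cells with 120 and 219 CPM. Fscn1, which bundles actin in the dendrites of mature dendritic cells, was at 1715 and 1125 CPM, and no other class exceeded 35.0 CPM. Ccl22 was at 1918 and 1745 CPM, and no other class exceeded 4.95 CPM. In the mouse genome build mm10 (GRCm38), Ccr7 lies at chr11:99144196-99155077 on the minus strand, Fscn1 at chr5:142960343-142973185 and Ccl22 at chr8:94745590-94751699, both on the plus strand.

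**Figure D1:**
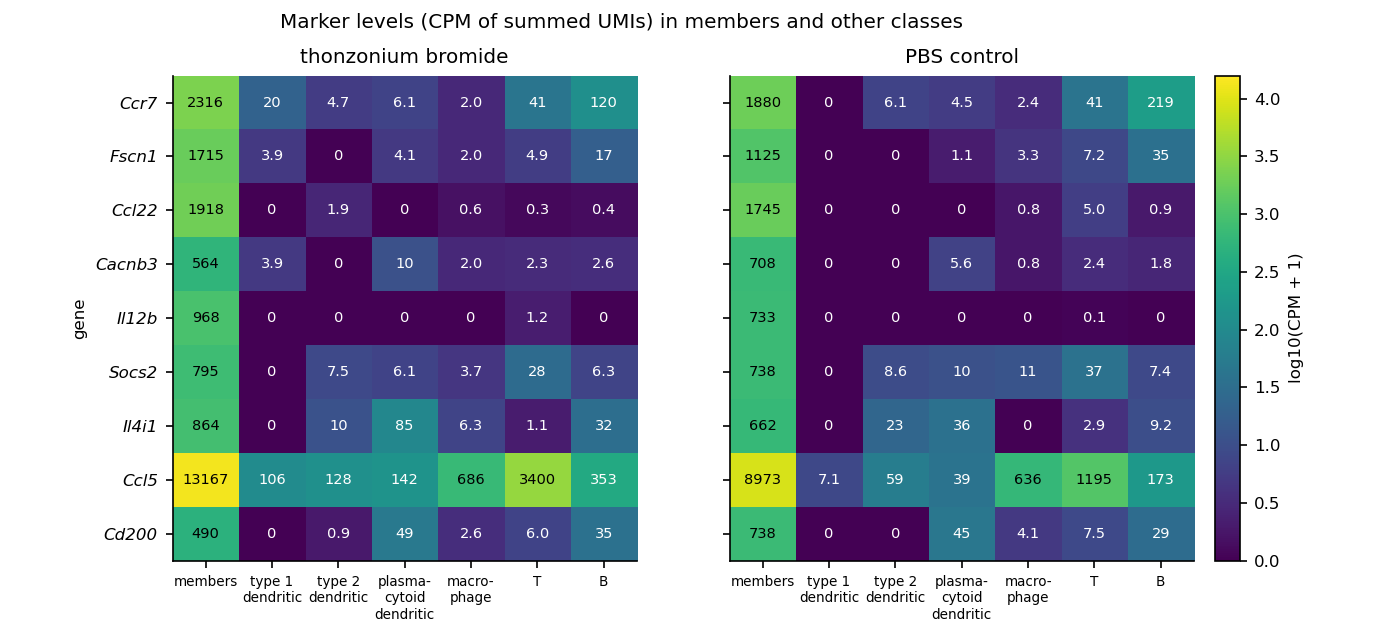
Heat map of the marker genes in members and in the comparison classes of the thonzonium bromide and control libraries. Colour gives CPM on a log scale and each cell prints its CPM, with the 2 control members over 50000 UMIs left out. Members stand above every other class for each marker, for example 564 and 708 CPM of Cacnb3 against at most 10.2 CPM elsewhere.

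The plot of marker levels by class shows summed libraries, and single members varied widely around them. After thinning each member to 2000 UMIs, a Cacnb3 UMI was found in 54.5% of 44 thonzonium bromide members (38.9 to 69.6) and 66.7% of 33 control members (48.2 to 82.0). In thinned T barcodes it was found in 0.154% of 1295 and 0.303% of 1319. An Il12b UMI was found in 22.7% and 15.2% of thinned members, against 0.0772% and 0% of T barcodes, where the 0 of 1319, taken as 3 counts, allows up to 0.227%. Unthinned, the shares were 75.6% and 90.0% for Cacnb3 and 28.9% and 32.5% for Il12b.

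Against the other conventional dendritic barcodes (96 thonzonium bromide and 74 control barcodes with class II genes and Xcr1 plus Clec9a or Cd209a plus Clec10a), members had a large shift in expression. With all members, 136 of 2249 genes compared, or 6.05%, were at least 4-fold higher in members in both libraries, and 165 of 2655, or 6.21%, were at least 4-fold lower. With the 40 control members these were 207 of 2381 higher, 134 of them shared with the first set, and 164 lower, 141 of them shared. The classes were drawn by expression, so these counts describe the classes and are no test.

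Of 43 genes of the dendritic maturation programme, 35 could be compared and 27 were at least 4-fold higher in members of both libraries. The list holds the rule genes Ccr7, Fscn1 and Ccl22, and without them 24 of 32 were higher. These counts are with all control members, and the control values that follow are with the 40. Cacnb3 and Cd200 each had 1 UMI in the thonzonium bromide dendritic barcodes and none in the control ones, where members were at least 226-fold and 235-fold higher against a floor of 3 counts over the group. Cd200, a ligand that restrains myeloid cells, was at 490 CPM in thonzonium bromide members and 738 CPM in the 40 control members. Tbc1d4, a Rab GTPase-activating protein, was at 1398 and 1572 CPM in members and at 40.6 and 31.4 CPM in the other dendritic barcodes. Il12b had no UMI in the other dendritic barcodes of either library, so its level in members was at least 429-fold and 234-fold higher.

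Members and other dendritic barcodes also differed outside that list. Ccl5, a chemokine for T cells, NK cells and monocytes, was at 13167 CPM in thonzonium bromide members and 8973 CPM in the 40 control members, which was 107-fold and 175-fold above the other dendritic barcodes. Bcl2a1b, a survival protein of the Bcl2 family, was 16.8-fold and 9.37-fold higher in members, and it has near-identical sister genes whose reads may be split between them. Anxa3, an annexin, was at 467 and 451 CPM in members, with 4 and 2 UMIs in all the other dendritic barcodes. Relb, the NF-κB subunit that dendritic cells need to mature, was at 743 and 624 CPM in members and at 63.2 and 33.4 CPM in the others. On the low side, Lyz2, the lysozyme gene of myeloid cells, was at 56.2 and 37.9 CPM in members against 1189 and 567 CPM. Of 14 class II genes compared with all control members counted, 3 were at least 4-fold lower in members of both libraries. That count with the 40 is not reported here. The list's median log2 ratio to the other dendritic barcodes was -0.80 in the thonzonium bromide library. In the control library it was -3.12 with all control members and -2.15 with the 40. H2-Ab1, a class II beta chain, was at 0.521 and 0.240 times its level in the other dendritic barcodes, with the 40 control members.

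**Figure D2:**
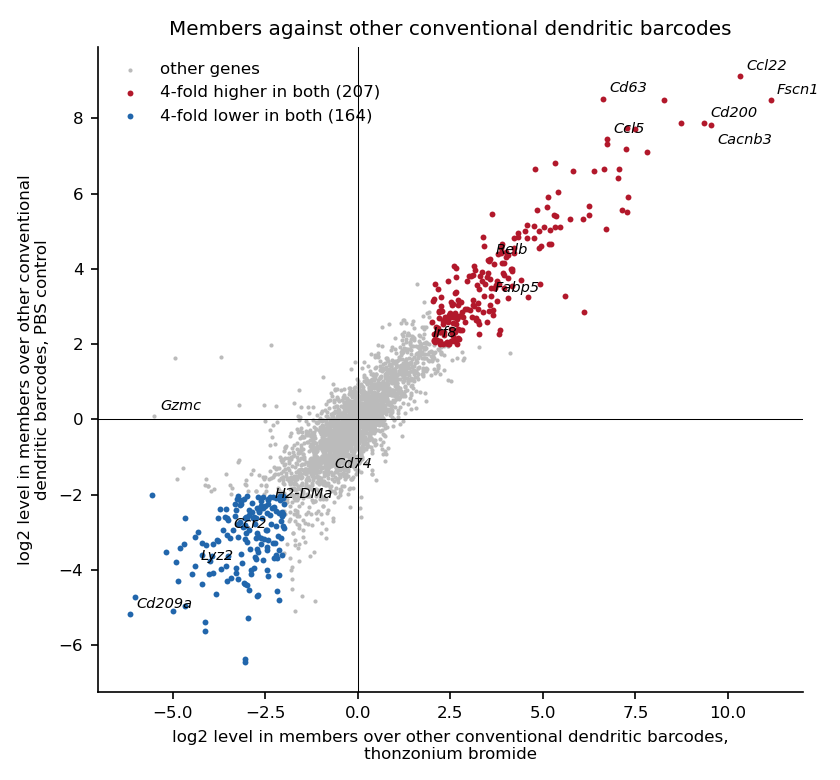
Each point is a gene, placed by the log2 ratio of its level in members to that in other conventional dendritic barcodes, thonzonium bromide against control, with the 40 control members. The 207 genes at least 4-fold higher and the 164 at least 4-fold lower in both libraries are marked, and Fscn1, Ccl22 and Cacnb3 are among the highest.

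The plot of members over other dendritic barcodes marks genes by the 4-fold call and not by list. Of the 35 maturation genes compared, 27 were called higher with all control members, and Fscn1 and Ccl22 are genes of the rule. Relb is also among the higher genes, so the promoters of those genes were searched for the NF-κB consensus. This motif of 10 letters, whose matches may overlap, was sought on both strands in the 250 bases before the RefSeq start. It was present for 16 of the 109 genes with sequence in that table (14.7%) out of the 136, for 223 of 1819 genes compared (12.3%) and for 2225 of all 27025 genes with a promoter (8.23%). Windows of 3 genes, from RefSeq on GRCm38.p6 and written 5′ to 3′ on the gene's plus strand, are shown because they belong to one of the higher genes with the motif and to both genes of the rule other than Ccr7. Capitals in the first mark a pair of overlapping matches on opposite strands, with first bases 201 and 200 before the start.
Il2ra, chr2:11642542-11642791: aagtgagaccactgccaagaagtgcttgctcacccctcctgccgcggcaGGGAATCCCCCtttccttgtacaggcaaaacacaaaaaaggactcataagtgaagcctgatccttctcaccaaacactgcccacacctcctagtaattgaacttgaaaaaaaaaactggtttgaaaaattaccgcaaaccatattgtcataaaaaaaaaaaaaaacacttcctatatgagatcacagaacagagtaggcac
Ccl22, chr8:94745434-94745683: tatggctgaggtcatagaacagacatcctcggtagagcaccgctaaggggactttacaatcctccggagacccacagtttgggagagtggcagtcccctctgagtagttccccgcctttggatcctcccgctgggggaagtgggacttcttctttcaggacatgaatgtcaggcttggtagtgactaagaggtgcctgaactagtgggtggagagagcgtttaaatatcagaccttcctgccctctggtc
Fscn1, chr5:142960105-142960354: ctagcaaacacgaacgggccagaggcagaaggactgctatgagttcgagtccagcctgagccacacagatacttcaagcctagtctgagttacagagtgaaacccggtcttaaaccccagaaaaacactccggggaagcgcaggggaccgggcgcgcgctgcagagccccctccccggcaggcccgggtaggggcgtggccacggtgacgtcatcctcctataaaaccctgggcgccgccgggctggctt
Il2ra, the alpha chain of the interleukin-2 receptor, was at 225 CPM in thonzonium bromide members and 316 CPM in the 40 control members, against 6.02 and 12.5 CPM in the other dendritic barcodes. The Ccl22 and Fscn1 windows hold no match, which says only that these letters are not in these 250 bases.

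Between the libraries, 717 of 2768 genes with at least 50 UMIs (25.9%) were at least 1.5-fold higher in thonzonium bromide members and 696 (25.1%) at least 1.5-fold lower when all 42 control members were used. With the 40 control members, 225 of 2079 genes (10.8%) were higher and 215 (10.3%) lower, and 156 and 55 genes were shared with the first counts. The median log2 ratio over all genes was 0.06 with all control members and 0.02 with the 40. Most calls made with all 42 control members were therefore not made with the 40. The values that follow are for the 40 unless all 42 are named. List counts below stand beside these shares of all genes, 25.9% and 25.1% with all 42, 10.8% and 10.3% with the 40.

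Of the genes that chose the members, given as description, Fscn1 passed 1.5-fold between libraries and Ccr7 and Ccl22 did not. Ccr7 ranged per member over 2.33 to 87.3 UMIs per 10000 with a median of 23 in thonzonium bromide members, and over 1.26 to 40.3 with a median of 15.8 in control members, and the summed level was 1.23-fold higher (1.10 to 1.38). Fscn1 had a median of 18.7 per 10000 (0 to 61.1) and 9.78 (0 to 28.9) and was 1.52-fold higher (1.33 to 1.76). Both genes overlapped widely between libraries. With all 42 control members, whose levels were 968 and 668 CPM, the ratios were 2.39 and 2.57. Ccl22 was 1.10-fold (0.977 to 1.24), and 3 members carried 62.2% of its UMIs in the thonzonium bromide library and 56.3% in the control.

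Chemokines as a list moved little, where 10.8% of all genes were at least 1.5-fold higher in members and 10.3% lower. Of 7 chemokines measured with the 40 control members, 1 was at least 1.5-fold higher and 1 lower, with a median log2 ratio of 0.27; with all 42, 4 of 9 were higher and 3 lower, at 0.13. Ccl5 had a median of 75.8 UMIs per 10000 (0 to 610) in thonzonium bromide members and 48.8 (0 to 331) in control members, and its summed level was 1.47-fold higher (1.4 to 1.54), or 2.86-fold with all 42. T barcodes, which express Ccl5 as well, carried 3400 and 1195 CPM of it, and the part of free RNA in the difference was not tested. Cxcl16, a membrane-bound chemokine for Cxcr6-bearing T cells, was 1.20-fold (1.02 to 1.42). Ccl4, an inflammatory chemokine, was at 171 and 25.3 CPM, but 3 members held 81.0% of its 79 UMIs in the thonzonium bromide library. Ccl19 had no UMI in members of either library.

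Among cytokines, Il12b was found in 13 members of each library and was 1.32-fold higher (1.11 to 1.58). Its highest member had 118 UMIs per 10000 in the thonzonium bromide library and 52.7 in the control, and 3 members held 73.7% and 77.6% of its UMIs. Its direction turned, to a log2 ratio of -1.82, when members with a UMI of a T, NK, B or macrophage marker were left out. Il1b, an inflammatory cytokine, was at 585 and 287 CPM, 2.04-fold higher (1.56 to 2.71), and it was also higher in the other dendritic barcodes, by 2.62-fold (2.31 to 2.98). Il1rn, which blocks the interleukin-1 receptor, was at 194 and 274 CPM, a ratio of 0.710 (0.510 to 0.992), which was 1.39 with all 42 control members. Of 6 cytokines measured, 2 were at least 1.5-fold higher and 1 lower, against 10.8% and 10.3% of all genes. With all 42 control members 3 were higher and none lower.

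Costimulatory and inhibitory ligands differed gene by gene. Cd80 and Cd86, the ligands of Cd28 and Ctla4, were at 181 and 402 CPM in thonzonium bromide members and 274 and 539 CPM in control members, ratios of 0.662 (0.473 to 0.93) and 0.745 (0.591 to 0.940). Cd40, which receives the helper signal of T cells, was at 400 and 333 CPM and Cd83, which steadies class II and Cd86 at the surface, was at 825 and 687 CPM, and both intervals included a ratio of 1. Of 7 costimulatory genes measured, 1 was at least 1.5-fold higher (Icosl, 2.11-fold, 1.21 to 3.91) and 1 was lower (Cd80). Of 7 inhibitory ligand genes measured, 3 were at least 1.5-fold higher and 1 lower, with a median log2 ratio of 0.39. Of all genes, 10.8% were higher and 10.3% lower. With all 42 control members 5 of the 7 inhibitory genes were higher and 0 lower, at 1.07, against 25.9% and 25.1% of all genes. Cd200 was at 490 and 738 CPM, a ratio of 0.665 (0.543 to 0.814). With all 42 control members these ratios turned to 1.29 for Cd80, 1.46 for Cd86 and 1.30 for Cd200. Cd274, the gene of PD-L1, was at 577 and 531 CPM and Pdcd1lg2, the gene of PD-L2, at 171 and 110 CPM, 1.56-fold (0.989 to 2.53). Ly75, an endocytic receptor better known as DEC-205, was at 104 and 257 CPM, a ratio of 0.403 (0.270 to 0.598). Among Cd74-low members, a split described below, log2 ratios were -0.11 for Cd80, -0.22 for Cd86 and -0.17 for Cd200. Without regard to that split they were -0.59, -0.43 and -0.59. In Cd74-low members Cd80 was at 249 and 269 CPM and Cd200 at 722 and 813 CPM. The log2 ratio of Ly75 was -1.05 among them, against -1.31 without the split. The part of the Cd74 split in these differences was not tested.

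**Figure D3:**
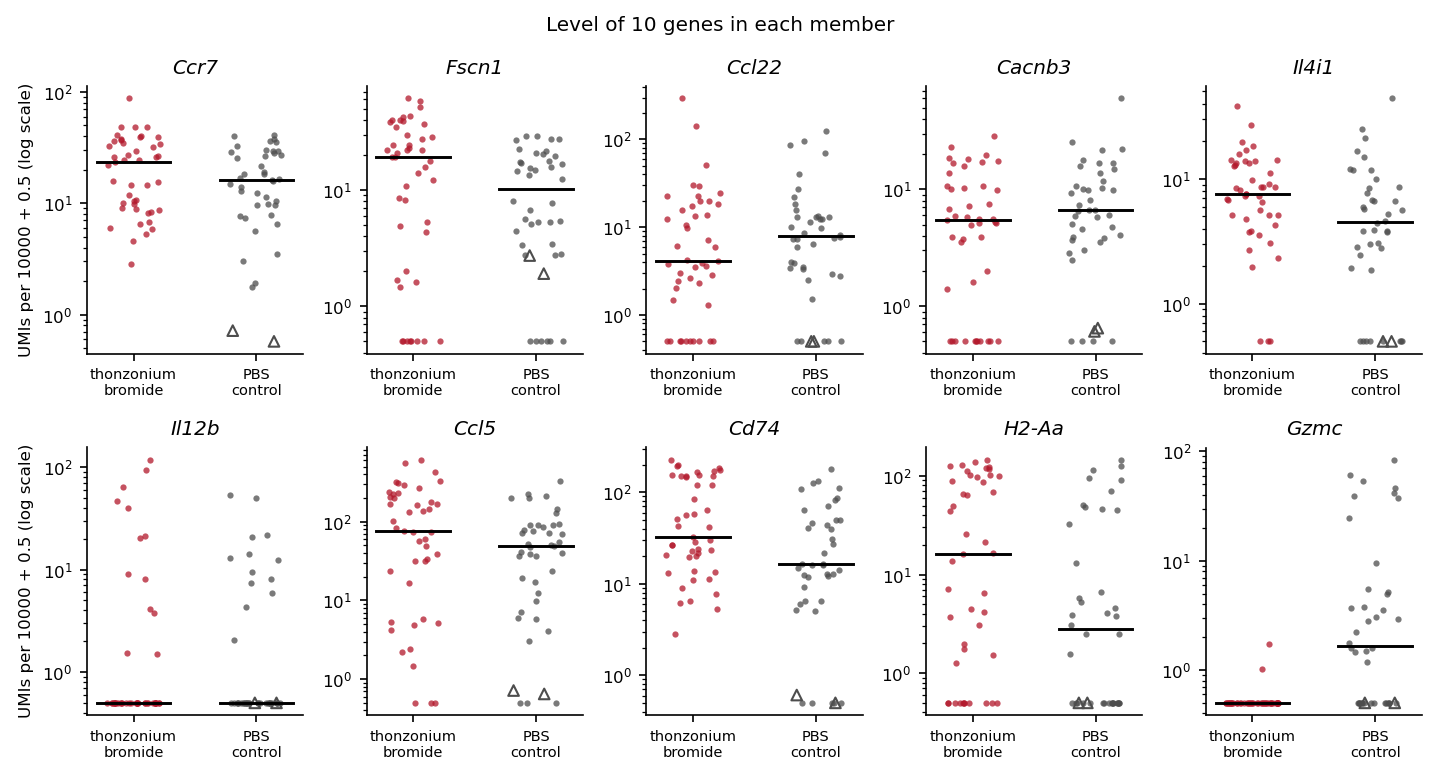
UMIs per 10000 plus 0.5 on a log axis for 10 genes in each of the 45 thonzonium bromide and 42 control members, with triangles for the 2 control members over 50000 UMIs and bars for the medians without them. Groups overlap for every gene shown, and the Cd74 medians are 32.2 in thonzonium bromide members and 15.7 in the 40 control members.

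Genes of class II antigen presentation varied widely in the plot of single members. Cd74, the invariant chain that escorts class II molecules, ran from 2.31 to 226 UMIs per 10000 in thonzonium bromide members and from 0 to 177 in control members. Its summed level was 7939 and 4902 CPM, 1.62-fold higher (1.52 to 1.73). H2-Aa, the class II alpha chain, was at 5072 and 3030 CPM, 1.67-fold higher (1.54 to 1.82), with medians of 15.5 and 2.28 per 10000. H2-Ab1 was at 3770 and 1829 CPM, 2.06-fold higher (1.85 to 2.29), and Ciita, the transactivator of class II genes, at 140 and 54.8 CPM, 2.56-fold (1.4 to 5.07). The 3 highest thonzonium bromide members held 31.6% of the H2-Ab1 UMIs and the 3 highest control members 58.1%.

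As a list, 5 of 10 class II genes were at least 1.5-fold higher and none lower, with a median log2 ratio of 0.62, against 10.8% of all genes and a median of 0.02. With all 42 control members, 10 of 10 were higher, at 1.45. The median lay between 0.48 and 1.71 under the alternative settings of rule, filter, depth, scaling and UMI threshold. The split of members by Cd74, described below, is not among these settings. In the other conventional dendritic barcodes 0 of 14 class II genes passed 1.5-fold in either direction, with a median of 0.02, where 6.38% of 5144 genes were at least 1.5-fold higher and 4.9% lower. The difference between members and those barcodes was not tested. H2-DMa, which helps load peptide, was at 147 and 160 CPM, and Lgmn, a lysosomal protease, at 356 and 392 CPM, so neither was higher. For class I, which shows peptides to CD8 T cells, 1 of 21 genes was higher and none lower, at a median of -0.08, and B2m, its light chain, was at 5746 and 6149 CPM. With all 42, 12 class I genes were higher and 2 lower.

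The split of members by Cd74 was large enough to describe on its own; its threshold of 100 UMIs per 10000 was set after the values were seen, and it gives a range, not a cell type. At or above it were 15 of 45 thonzonium bromide members (33.3%, 20 to 49.0) and 5 of 40 control members (12.5%, 4.19 to 26.8). Between 80 and 125 per 10000 lay 3 thonzonium bromide and 4 control members. Of the 15 thonzonium bromide members above the threshold, 8 had no Fscn1 UMI and 11 no Cacnb3 UMI, against 0 and 0 of the 30 below it. In the control library 1 and 2 of the 5 above it lacked Fscn1 and Cacnb3, against 5 and 2 of the 35 below.

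The Cd74-high thonzonium bromide members were lower in some maturation genes and near the Cd74-low ones in others. Their Fscn1 was at 193 CPM against 2699 CPM in the Cd74-low ones, their Cacnb3 at 110 against 857 CPM and their Ccl5 at 4403 against 18829 CPM. Of the other rule genes, Ccr7 was at 2075 against 2471 CPM and Ccl22 at 881 against 2589 CPM. Il4i1 was at 864 and 864 CPM, Cd83 at 820 and 829 CPM, Cd274 at 556 and 590 CPM and Cd86 at 369 and 423 CPM, Cd74-high members first. Il12b was at 1161 against 843 CPM, with a UMI in 2 of the 15 Cd74-high members. Lgals3, a galectin abundant in macrophages and type 2 dendritic cells, was at 1723 CPM against 146 CPM, Cd68, a lysosomal protein of phagocytes, at 176 against 3.56 CPM, and Fcgr1, a high-affinity Fc receptor, at 127 against 10.7 CPM. The lower Fscn1, Cacnb3, Ccl22 and Ccl5 go against the name for part of these members, as does Socs2, at 358 against 1077 CPM. The higher Lgals3, Cd68 and Fcgr1 do too. Ccr7, Il4i1, Cd83, Cd274 and Cd86 were nearer to the Cd74-low levels and do not. These members are called here only by their Cd74.

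The 5 Cd74-high control members shared some of this. H2-Ab1 was at 6672 CPM in them and 833 CPM in Cd74-low control members, Ciita at 297 and 5.08 CPM and Lgals3 at 1112 and 244 CPM. Their Fscn1 was at 692 CPM against 1214 CPM and their Ccl5 at 11565 against 8440 CPM. Their Ccr7 was at 593 against 2144 CPM, a ratio of 0.277 (0.175 to 0.417). Over 1946 genes, 81 were at least 2-fold higher and 125 at least 2-fold lower in Cd74-high members of both libraries. Net1, a guanine exchange factor for RhoA, was at 99.1 and 896 CPM in the thonzonium bromide library and 74.1 and 854 CPM in the control, Cd74-high members first. Tnfrsf4, the costimulatory receptor OX40, had no UMI in Cd74-high members of either library and was at 348 and 178 CPM in Cd74-low members.

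**Figure D4:**
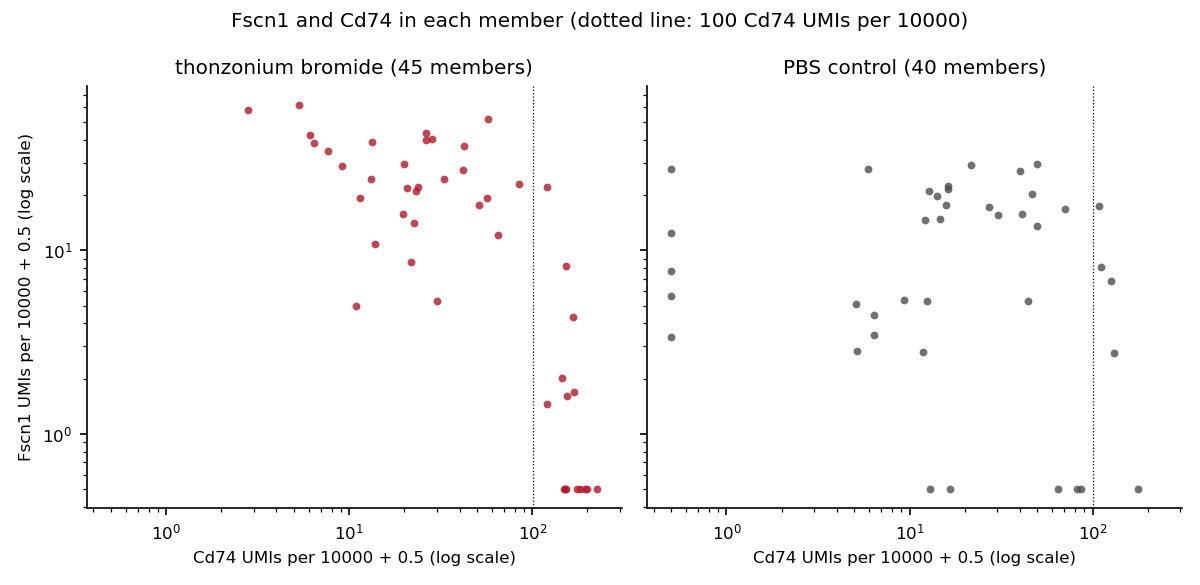
Fscn1 against Cd74 in single members, both in UMIs per 10000, for 45 thonzonium bromide and 40 control members, with a dotted line at 100 Cd74 UMIs per 10000. Thonzonium bromide members above the line lie low in Fscn1 (Spearman correlation -0.73 over 45 members). Control members show no such order (-0.06 over 40), but only 5 of them lie at or above the line. They were also shallower, at a median of 4367 UMIs against 9854, and the part of depth was not tested.

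The plot of Fscn1 against Cd74 is a description, since members of 1 library share depth and free RNA. The class II list is not compared within these ranges, because the ranges were drawn by a gene that belongs to it. Among Cd74-low members alone, the maturation list had a median log2 ratio of thonzonium bromide to control of 0.30 over 36 genes, the cytoskeleton list at 0.32 over 28 and the type I interferon list at -0.86 over 16. Fscn1 and Cacnb3 had a Spearman correlation of 0.66 over the thonzonium bromide members and 0.20 over the control members, and Fscn1 and Cd200 of 0.66 and 0.10. The part of the lower depth of control members in these differences was not tested.

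Of 20 genes induced by type I interferon, the antiviral alarm cytokines, 0 were at least 1.5-fold higher and 4 lower in members. Of all genes in members, 10.8% were higher and 10.3% lower. The list's median log2 ratio was -0.27. With all 42 control members 8 were higher and 1 lower, at 0.51. Isg15, a ubiquitin-like interferon product, was at 2186 and 3140 CPM, a ratio of 0.696 (0.633 to 0.766), with medians of 7.78 and 8.28 UMIs per 10000. With all 42 control members the ratio was 1.21. Its 3 highest members held 32.2% and 43.8% of its UMIs. Bst2, the virus tether tetherin, was at 626 and 982 CPM, a ratio of 0.638 (0.535 to 0.761). The same list was lower in the other dendritic barcodes, where 7 of 22 genes passed 1.5-fold lower and 0 higher, against 4.9% and 6.38% of all genes, with a median of -0.47, and Isg15 there was at 1066 and 1988 CPM. Of 17 genes induced by interferon-gamma, 3 were higher and 0 lower in members, with a median of -0.05, and Gbp2, a guanylate-binding protein, was at 456 and 249 CPM.

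NF-κB genes were near level. Of 18 measured, 3 were at least 1.5-fold higher and 0 lower, with a median of 0.12, against 10.8% and 10.3% of all genes. With all 42 control members 15 of 19 were higher, at 0.94. Nfkbiz, a nuclear inhibitor-like cofactor, was at 253 and 131 CPM, 1.93-fold higher (1.29 to 2.97), while Traf1, a signalling adaptor, was at 1484 and 1543 CPM and Birc2, a ubiquitin ligase of the pathway, at 780 and 940 CPM. Of 13 dendritic transcription factors, 1 was higher and 3 lower, at a median of -0.03. Irf8, which drives type 1 dendritic cells, was at 2089 and 2238 CPM. Spi1, the myeloid factor PU.1, was at 372 and 198 CPM, 1.88-fold higher (1.35 to 2.65), and Id2, an inhibitor of E proteins needed for dendritic development, at 767 and 1163 CPM, a ratio of 0.659 (0.562 to 0.774), or 1.28 with all 42 control members. Etv3, an ETS family repressor, was at 838 and 586 CPM, 1.43-fold higher (1.18 to 1.75).

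For actin and migration genes, Fscn1 among them, the list stood at a median of 0.14, with 5 of 32 at least 1.5-fold higher and 2 lower, against 21 of 32 higher with all 42 control members. Actg1, gamma actin, was at 5701 and 3819 CPM, 1.49-fold higher (1.38 to 1.61), with medians of 54.2 and 30.0 UMIs per 10000. Tmsb4x, which holds free actin, was at 42940 and 37557 CPM, and Actb, beta actin, at 22905 and 22254 CPM. The maturation list as a whole had a median of 0.06, with 6 of 37 genes higher and 3 lower, against 1.02 and 31 of 37 with all 42. Without the 3 rule genes it was 0.03, with 5 of 34 higher and 3 lower.

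**Figure D5:**
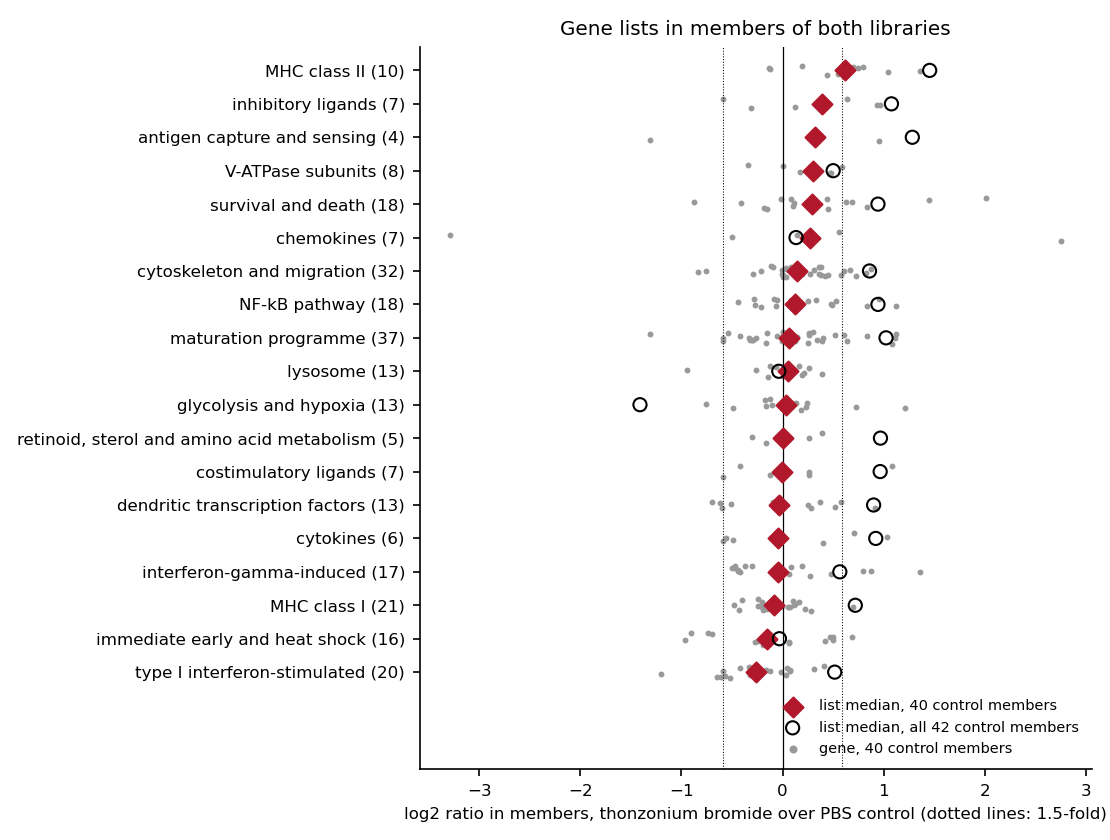
Median log2 ratio of thonzonium bromide to control members for each gene list, diamonds with the 40 control members and open circles with all 42. The class II list is at 0.62 and 1.45, and the glycolysis list turns from 0.04 to -1.41 when the 2 deep barcodes are included.

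The plot of list medians shows how far the 2 deep control barcodes moved most lists. For survival and death genes the median was 0.29 with the 40 control members, with 5 of 18 at least 1.5-fold higher and 1 lower, against 10.8% and 10.3% of all genes. Pmaip1, which encodes the death-promoting protein Noxa, was at 305 and 75.9 CPM, 4.02-fold higher (2.45 to 6.97), with a UMI in 29 of 45 and 10 of 40 members, and it was at 215 and 232 CPM in the other dendritic barcodes. Among Cd74-low members its log2 ratio was 0.53, over 52 UMIs. Gsdmd, the pore-forming gasdermin D, was at 114 and 42.1 CPM, 2.72-fold higher (1.37 to 5.99). Bcl2a1b was at 2221 and 1821 CPM, 1.22-fold higher (1.09 to 1.37), and Serpinb9, which blocks granzyme B, was at 948 and 957 CPM.

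Metabolic and acidification genes were close, where 10.8% of all genes were at least 1.5-fold higher in members and 10.3% lower. Of 13 glycolysis genes, 2 were at least 1.5-fold higher and 1 lower, with a median of 0.04, and Ldha, lactate dehydrogenase, was at 184 and 156 CPM. With all 42 control members, 11 of 16 were lower at -1.41 and Ldha was at 184 and 746 CPM. Of 8 subunits of the V-ATPase, the proton pump that acidifies lysosomes, 1 was higher and 0 lower, with a median of 0.30, and it was 0.12 in the other dendritic barcodes. Atp6v0c, the proteolipid of the pump, was at 560 and 497 CPM (1.13-fold, 0.902 to 1.41) in members and at 596 and 431 CPM in the other dendritic barcodes. Of 13 lysosome genes, 0 were higher and 1 lower, at 0.06. Cst3, cystatin C, was at 14947 and 16290 CPM.

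Outside the lists, Ucp2, a mitochondrial carrier, was at 702 and 299 CPM, 2.35-fold higher (1.81 to 3.08). Aif1, an actin-bundling protein of myeloid cells, was at 197 and 71.6 CPM, 2.74-fold higher (1.62 to 4.91). In the other dendritic barcodes Ucp2 was at 655 and 561 CPM and Aif1 at 204 and 152 CPM. Fabp5, a lipid carrier, was at 2145 and 1496 CPM, 1.43-fold higher (1.27 to 1.62), with medians of 10.2 and 8.03 UMIs per 10000.

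A large contrast was that of Gzmc, a granzyme of activated killer cells and not a dendritic gene, at 6.48 CPM in thonzonium bromide members and 767 CPM in the 40 control members. A Gzmc UMI was found in 4.44% of thonzonium bromide and 62.5% of control members, and B barcodes, which should lack it, had one in 15.0% and 52.7%, at median depths of 3742 and 3907 UMIs. In thonzonium bromide members the share lay below that of B barcodes and in control members near it. Summed, B barcodes held 976 and 669 CPM of Gzmc. The part of free RNA in these shares was not tested. Haemoglobin Hbb-bs had a UMI in 40% and 85.0% of members and 34.9% and 82.3% of B barcodes. Its share in thonzonium bromide members was thus not below that of B barcodes, unlike that of Gzmc.

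The 7 control members with 9 or more Gzmc UMIs, a number chosen after their values were seen, held 153 of the 182 control Gzmc UMIs. Their depth was 2447 to 7013 UMIs. They also carried 1736 CPM of Nkg7 and 1158 CPM of Gzmb, genes of cytotoxic granules, against 24.1 and 77.0 CPM in the other 33 control members. Each of the 7 had Ccr7, Fscn1 and Ccl22, at 851, 579 and 409 CPM, and their Cd200 was at 1124 CPM, but H2-Aa was at 68.1 CPM, against 3449 CPM in the other 33. Against those 33 alone, thonzonium bromide members had a log2 ratio of 0.53 for Cd74, 0.48 for Ccl5, -0.48 for Cd200 and -0.67 for Isg15, each in the same direction as with the 40.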

How the data were processed

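The authors deposited whole-number UMI counts of 32285 genes by barcode, which Cell Ranger 6.1.2 wrote, per the file headers. Seurat 3.0, R 3.5.3 and the build mm10 appear in the submitters' processing notes, and the labels' protocols name a version of the 10x Genomics 3′ kit. No cell type annotation was used here.

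Barcodes were filtered and members found as stated above, and no doublet caller was run. Counts were summed over the members of a library and divided by their total (CPM), with exact Poisson intervals. Ratios of thonzonium bromide to control have exact conditional binomial intervals and shares exact Clopper-Pearson intervals. A gene entered the library comparison with at least 50 UMIs over both libraries. It entered the comparison with other dendritic barcodes with at least 50 UMIs over the 4 sums and 50 CPM on the higher side in each library. Sums of 0 were set to 3 counts for a ratio.

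Members, the 31 gene lists and the comparison classes were chosen with earlier results of these data known. Other conventional dendritic barcodes had at least 5 UMIs of H2-Aa plus H2-Ab1, at most 3 of the C1q genes, no Siglech, and at least 2 of Xcr1 plus Clec9a or of Cd209a plus Clec10a. Named genes were the markers, the most abundant and the most extreme genes of each list, the most extreme genes outside the lists and those highest over other dendritic barcodes; Gzmc, Ccl17, Ccl19, Lyz2, Il2ra, Relb, Tbc1d4, Cd274, Nkg7, Gzmb and the genes named within the Cd74 ranges were chosen after their values were seen. Some genes that the rule names are not reported here. Leaving out members over 50000 UMIs or with 9 or more Gzmc UMIs was also chosen then. Gene positions are from GENCODE for GRCm38. The scripts were tested on simulated data and used Python 3.11.15, numpy 2.4.6, scipy 1.17.1 and pandas 2.3.3, with matplotlib 3.10.9 for figures.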

Additional observations from a re-analysis of the deposited data

How the results depend on the processing

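No paired analysis was possible because there was 1 library per group. With 45 and 40 or 42 members, a gene near 50 UMIs in all has a wide interval, and no replicate spread exists to set a ratio against. The shares of members kept their direction and stayed within their intervals, at ratios of 1.02 to 1.501 among kept barcodes, but the ratio among conventional dendritic barcodes passed from 0.881 to 1.03 without the 2 deep and the 7 Gzmc-rich control members. The genes at least 1.5-fold higher and lower in thonzonium bromide members (717 and 696) numbered 392 and 354 with Ccr7 at 2 UMIs or more, 334 and 299 without members carrying lymphocyte or macrophage markers, 197 and 182 without the deepest 5%, 225 and 215 without those over 50000 UMIs, 223 and 225 without those and the Gzmc-rich ones, 56 and 33 with members thinned to 2000 UMIs, 428 and 453 with each member scaled alike, 1688 and 2587 at 10 UMIs or more, 226 and 150 at 200 or more, and 310 and 404 at 2-fold. Genes higher over other dendritic barcodes (136) numbered 206 without the deepest 5%, 207 and 211 without the deep and without the deep and Gzmc-rich members, and 298 at 2-fold.

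Signs of log2 ratios turned as follows against those with all members, for genes and lists that passed 1.5-fold there, and the cause was not tested. Without members over 50000 UMIs the list medians were -0.047 for cytokines, -0.0038 for costimulatory ligands, -0.082 for class I, -0.035 for dendritic transcription factors and for type 1 dendritic markers, 0.036 for glycolysis and -0.00075 for retinoid, sterol and amino acid metabolism; Cacnb3 was at -0.33, Traf1 -0.056, Birc2 -0.27, H2-DMa -0.12, Lgmn -0.14, B2m -0.10, Irf8 -0.10, Cst3 -0.12, Gapdh 0.18, Ldha 0.24, Serpinb9 -0.013 and Batf3 -0.035. Without the Gzmc-rich ones as well, medians were -0.072 for maturation, -0.093 for costimulatory ligands, -0.019 for NF-κB, -0.11 for class I, 0.015 for glycolysis and -0.039 for the retinoid list; Ccl22 was at -0.012, Cacnb3 -0.41, Traf1 -0.18, Birc2 -0.37, H2-DMa -0.20, Lgmn -0.31, B2m -0.11, Ifit3 -0.022, Irf8 -0.12, Cst3 -0.22, Gapdh 0.17, Ldha 0.35, Serpinb9 -0.042 and Anxa3 -0.086. Without the deepest 5%, medians were -0.036 for class I, 0.073 for glycolysis and -0.026 for the retinoid list; Cacnb3 was at -0.27, Traf1 -0.023, Birc2 -0.24, H2-DMa -0.33, Lgmn -0.042, B2m -0.036, Cst3 -0.091, Gapdh 0.23 and Ldha 0.21. Without members carrying lymphocyte or macrophage markers, Ccl22 was at -0.14, Cacnb3 -0.045, Il12b -1.82, Ebi3 -1.15 and Birc2 -0.0038. With members thinned, the costimulatory median was -0.016, Ccl22 -0.073, Cd40 -0.17, H2-DMa -0.16, Lgmn -0.085, Actb -0.027 and Anxa3 -0.16. With each member scaled alike, the costimulatory median was -0.053, Cacnb3 -0.35, Birc2 -0.20, Ifit3 -0.048, Gapdh 0.19 and Batf3 -0.17. None of these signs turned under the barcode filters or the other scalings.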
